A study of Mus musculus with 12 samples.

Results

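The genes described here are 10 mouse genes for proteins of the mature neutrophil and its granules: S100a8, S100a9, Ltf, Ngp, Camp, Lcn2, Mmp8, Mmp9, Retnlg and Cd177. They were chosen by symbol, and 10 of 10 were found among the 56748 gene identifiers counted. RNA-seq was carried out on total RNA from sorted CD45.2+ Lin-Sca+Kit+ (LSK) bone marrow (BM) cells, a fraction that holds haemopoietic stem cells and multipotent progenitors. The donor cells carried the SCLtTA and BCR-ABL transgenes (DTG), in which a tetracycline-regulated activator under Scl control drives human BCR::ABL1 in stem and progenitor cells when tetracycline (TET) is absent, and they came from pooled BM of DTG mice. Recipients were B6.SJL mice (CD45.1) of 8 to 12 weeks, irradiated with 2 doses of 4.25 Gy given 3 h apart, and all of them received TET for the 2 weeks after transplantation. In the 6 CTRL libraries TET was then continued (TET on, BCR::ABL1 off). In the 6 CML 2wk libraries TET was withdrawn for 2 weeks (TET off, BCR::ABL1 on). The labels give every CTRL library as male and every CML 2wk library as female, so sex as labelled and BCR::ABL1 cannot be told apart. The paper describes both the pooled donor mice and the recipients as being of both sexes. It is therefore uncertain what the labelled sex refers to. Transcripts of the BCR::ABL1 transgene were not analysed here.

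Neutrophils build their granules in sequence. Primary (azurophil) granules with Mpo, Elane and other serine proteases are filled at the promyelocyte stage, specific granules with Ltf, Camp, Ngp and Lcn2 at the myelocyte and metamyelocyte stages, and gelatinase granules with Mmp9 later still, and C/EBP epsilon is required for the specific granule genes. S100a8 and S100a9 encode the subunits of calprotectin, an abundant cytosolic protein of neutrophils that sequesters metal ions. LSK cells lie upstream of these stages, and mature neutrophils carry lineage antigens that the Lin- gate is meant to remove. The question of the design is how these transcripts, as far as they are found in the LSK gate, differ when BCR::ABL1 is switched on.

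The 250 bases upstream of the annotated start are printed for 5 of the genes, chosen because S100a9, Ltf, Ngp and Camp were lower in CML 2wk and Lcn2 was not. They are from RefSeq on GRCm38.p6 (another build than the mm39 of the counts), read 5′ to 3′ on the gene's strand, and capitals mark matches to the C/EBP-type letters TTGCNNAA on either strand. Ngp lies on the plus strand and its window is chr9:110419558-110419807, Ltf on the plus strand at chr9:111019042-111019291, Camp on the minus strand at chr9:109849457-109849706, S100a9 on the minus strand at chr3:90695722-90695971 and Lcn2 on the minus strand at chr2:32387740-32387989.
Ngp: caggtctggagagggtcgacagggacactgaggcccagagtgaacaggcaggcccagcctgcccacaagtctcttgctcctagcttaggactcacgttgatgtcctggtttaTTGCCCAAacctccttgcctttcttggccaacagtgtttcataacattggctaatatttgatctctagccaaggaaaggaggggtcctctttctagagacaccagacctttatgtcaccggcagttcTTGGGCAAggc
Ltf: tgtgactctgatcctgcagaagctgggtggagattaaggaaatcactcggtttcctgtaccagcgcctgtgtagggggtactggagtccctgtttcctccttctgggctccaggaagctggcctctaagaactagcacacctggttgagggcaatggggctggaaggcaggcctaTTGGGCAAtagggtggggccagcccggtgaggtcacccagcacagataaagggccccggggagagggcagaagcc
Camp: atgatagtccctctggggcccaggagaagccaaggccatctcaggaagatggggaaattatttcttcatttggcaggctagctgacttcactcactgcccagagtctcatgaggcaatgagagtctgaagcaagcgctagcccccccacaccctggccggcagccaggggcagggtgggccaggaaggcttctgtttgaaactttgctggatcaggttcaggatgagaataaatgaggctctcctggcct
S100a9: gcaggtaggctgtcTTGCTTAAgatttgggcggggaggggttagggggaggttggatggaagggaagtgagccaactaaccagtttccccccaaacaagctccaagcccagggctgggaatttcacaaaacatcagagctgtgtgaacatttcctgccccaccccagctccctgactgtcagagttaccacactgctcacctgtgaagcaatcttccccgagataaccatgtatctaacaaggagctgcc
Lcn2: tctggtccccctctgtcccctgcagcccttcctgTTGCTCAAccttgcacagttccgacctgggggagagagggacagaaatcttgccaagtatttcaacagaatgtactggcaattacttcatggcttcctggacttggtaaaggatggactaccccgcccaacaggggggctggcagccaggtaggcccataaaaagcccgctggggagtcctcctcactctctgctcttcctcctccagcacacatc
Of the 10 genes, 9 were matched in the promoter table. TTGCNNAA was found in 6 of the 9 windows (Ngp, Ltf, S100a9, Lcn2, Mmp8 and Retnlg) and in 9.56% of the 32851 windows of this length in the table. Ngp held 2 matches, the first base at 138 and at 11 bases before the start, whereas Camp, which was also called lower, held none. Lcn2, which was not called lower, held 1. The PU.1-type letters GAGGAA were in 5 of the 9 windows (S100a8, Ltf, Lcn2, Mmp8 and Cd177) against 23.3% of all windows, and no match of either kind overlapped another. The STAT-type letters TTCNNNGAA (7.02% of all windows) and the NF-kB-type motif (17.6%) were in 0 of the 9. All motifs were searched on both strands, and a match describes letters, not a bound site.

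Total counts were 22804754 to 41832868 per CTRL library and 16150817 to 25070105 per CML 2wk library. The mean depth of CTRL was 1.51 times that of CML 2wk (two-sided exact permutation p = 0.0108, n = 6 and 6), and mitochondrial transcripts took 0.816 to 1.29% of CTRL and 2.26 to 2.97% of CML 2wk counts. Levels below are CPM, the counts of a gene scaled to a common library size with TMM factors. The gate markers Kit (681 to 800.0 CPM in CTRL, 323 to 522 in CML 2wk) and Ly6a, which encodes Sca-1 (27.2 to 38.3 and 31.4 to 74.1 CPM), were present in every library. For these genes CTRL 4 stood apart, with all 10 at their CTRL maximum, as did CML 2wk 2, with the highest Mmp9 of its group, and CML 2wk 6, with at most 1 count of Ltf, Mmp9 and Retnlg. CML 2wk 1 was the highest of its group for 8 of the 10 genes, and its Mmp8 level also stood apart. Results that changed without these libraries are given both ways. The libraries were singled out by their values for these same genes, so p-values without them are descriptive.

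Of the 10 granule genes, S100a9, Ltf, Ngp and Camp were lower in CML 2wk, by 3.77-fold to 7.70-fold, and none of the 10 passed the test in the other direction (edgeR quasi-likelihood test, Benjamini-Hochberg adjusted p under 0.05 over 18438 genes). All 10 passed the filter on low counts. Over all genes tested 59.5% were called, 29.0% lower and 30.6% higher, so 4 of 10 lower lies near the background of this comparison. At an unadjusted p under 0.05 edgeR gave 5 lower and 0 higher. DESeq2 also called 4 of the 10 lower and 0 higher, against 60.6% of all genes called (29.6% lower and 30.9% higher). The median log2 fold change was -1.51 over the 10 genes and 0.07 over all genes tested. Over the 10 genes it was -0.57 without CTRL 4 and -0.49 without CTRL 4, CML 2wk 2 and CML 2wk 6. Without CML 2wk 1, Mmp8 and Cd177 were called lower as well, which made 6 of 10. Without CTRL 4, Camp was called lower and Lcn2 higher, while S100a9, Ltf and Ngp no longer passed, against 55.4% of all genes called, 27.3% lower and 28.1% higher. Without CTRL 4, CML 2wk 2 and CML 2wk 6, a setting added after the data were seen, Lcn2 was called higher and no gene of the 10 lower (1 at an unadjusted p under 0.05 by edgeR), against 60.8% of all genes called, 30.3% higher and 30.5% lower. In bulk RNA, fewer cells with these transcripts and less of them per cell cannot be told apart.

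**Figure D1:**
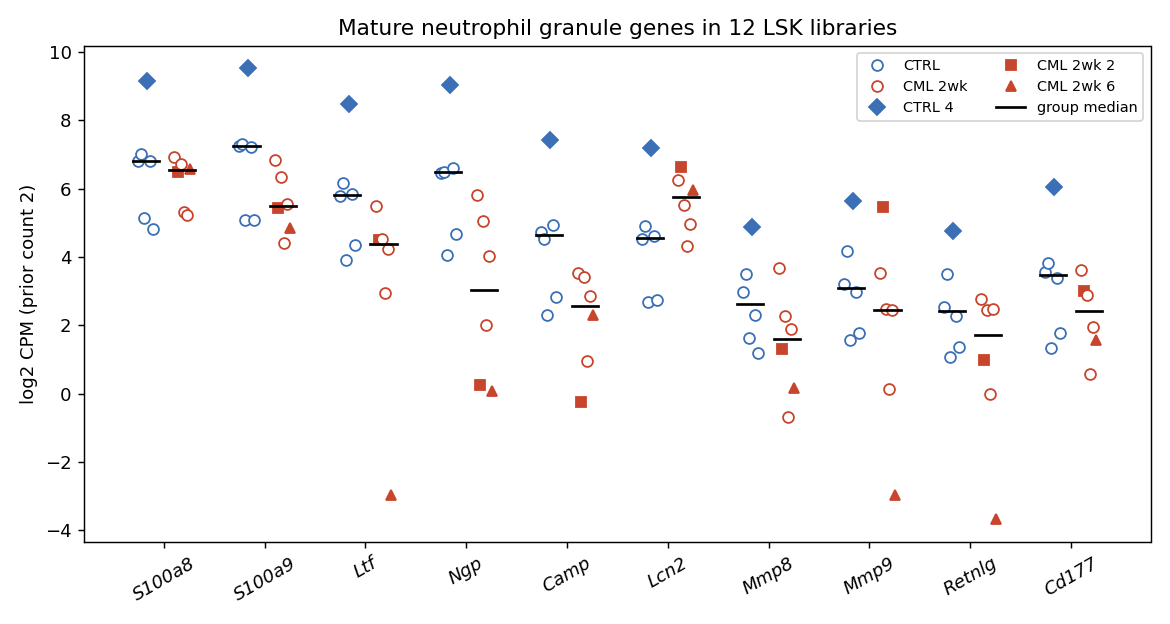
Levels of the 10 granule genes in each library, as log2 CPM with a prior count of 2 (y axis), CTRL in blue and CML 2wk in red, with lines at the group medians and filled symbols for CTRL 4, CML 2wk 2 and CML 2wk 6. CTRL 4 is the highest CTRL point for all 10 genes, and for no gene do the groups separate.

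Ngp encodes neutrophilic granule protein, a cathelicidin-related protein of the specific granule. Its level was lowest at 16.6, median 89.3 and highest at 528 CPM in CTRL, and lowest at 0.987, median 10.1 and highest at 56.5 CPM in CML 2wk. Every CML 2wk library was below the CTRL median, but the upper CML 2wk values lay inside the CTRL range, and CTRL 4 was far above the next CTRL library at 97.5 CPM. The log2 fold change was -2.94 (SE 0.96, edgeR adjusted p = 0.0162), and -1.79 (adjusted p = 0.0813) without CTRL 4 and -1.24 (adjusted p = 0.0982) without the 3 libraries. CML 2wk 2 and CML 2wk 6 held only 26 and 20 counts of Ngp.

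Camp encodes the cathelicidin antimicrobial peptide, a specific granule protein. It measured 4.90, 24.9 and 171 CPM (lowest, median and highest) in CTRL and 0.770, 6.00 and 11.4 CPM in CML 2wk. All CML 2wk libraries were below the CTRL median, the ranges overlapped, and the next CTRL library after CTRL 4 was at 30.5 CPM. Camp had the smallest adjusted p of the 10 genes, with a log2 fold change of -2.87 (SE 0.82, edgeR adjusted p = 0.00721). It was the only one of the 10 still called lower without CTRL 4, at -1.61 (adjusted p = 0.035), and it missed the threshold without all 3 libraries, at -1.27 (adjusted p = 0.0555).

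Ltf encodes lactoferrin, the iron-binding protein of specific granules. Its level was 14.96, 56.6 and 353 CPM (lowest, median and highest) in CTRL and 0.0493, 20.7 and 44.6 CPM in CML 2wk. The 6 CML 2wk libraries were all below the CTRL median and overlapped the lower CTRL libraries, and CML 2wk 6 held a single count (1). The log2 fold change of -2.31 (SE 0.82, edgeR adjusted p = 0.0252) became -1.19 (adjusted p = 0.157) without CTRL 4 and -0.92 (adjusted p = 0.115) without the 3 libraries. Leaving out CML 2wk 4 also took it out of the calls, to -2.15 (adjusted p = 0.0514).

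S100a9, the larger subunit of calprotectin, measured 33.7, 150.5 and 732 CPM (lowest, median and highest) in CTRL and 21.1, 45.2 and 115 CPM in CML 2wk. All CML 2wk libraries were below the CTRL median and within or below the CTRL range. It was lower with a log2 fold change of -1.91 (SE 0.67, edgeR adjusted p = 0.0226), and at -0.92 (adjusted p = 0.124) without CTRL 4 and -0.70 (adjusted p = 0.261) without the 3 libraries. Its partner S100a8 measured 27.9, 113 and 571 CPM in CTRL and 37.7, 92.8 and 121 CPM in CML 2wk. For S100a8 the medians lay close together and the CML 2wk libraries fell inside the CTRL range. Its log2 fold change of -1.02 (SE 0.60, edgeR adjusted p = 0.155) did not pass, and without CTRL 4 it was -0.05 (adjusted p = 0.931).

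Lcn2 encodes lipocalin 2 (NGAL), a specific granule protein that binds bacterial siderophores. It measured 6.28, 23.6 and 146 CPM (lowest, median and highest) in CTRL and 20.02, 54.2 and 98.8 CPM in CML 2wk. Lcn2 had the highest value of the 12 libraries in CTRL 4, yet 5 of 6 CML 2wk libraries were above the CTRL median. The log2 fold change of 0.49 (SE 0.64, edgeR adjusted p = 0.526) did not pass with all libraries. Without CTRL 4 Lcn2 was higher by 1.62 (adjusted p = 0.00929), and without the 3 libraries by 1.24 (adjusted p = 0.030). The libraries left out were picked by their values for these same genes, so these adjusted p-values are descriptive. The next CTRL library after CTRL 4 was at 30.1 CPM.

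The other 4 genes did not pass the test. Mmp8, neutrophil collagenase, measured 2.23, 6.27 and 29.0 CPM (lowest, median and highest) in CTRL and 0.543, 3.02 and 12.7 CPM in CML 2wk, at a log2 fold change of -1.23 (SE 0.70, edgeR adjusted p = 0.145). Cd177, a surface glycoprotein also held in granules, measured 2.47, 11.02 and 65.4 CPM and 1.41, 5.59 and 12.2 CPM, at -1.60 (SE 0.70, edgeR adjusted p = 0.0622). For both, 5 of 6 CML 2wk libraries were below the CTRL median and the ranges overlapped. Retnlg, a resistin-like secreted protein, measured 2.02, 5.27 and 27.3 CPM and 0, 3.64 and 6.69 CPM, at -1.41 (SE 0.77, edgeR adjusted p = 0.128). CML 2wk 6 held 0 counts of Retnlg, which allows up to 3 counts, or 0.137 CPM of the library total without TMM scaling. For Retnlg, 3 of 6 CML 2wk libraries were below the CTRL median. Without CTRL 4 the log2 fold changes were -0.49 for Mmp8, -0.50 for Cd177 and -0.65 for Retnlg, and without the 3 libraries they were -0.12, -0.46 and -0.21.

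Mmp9 encodes gelatinase B, the marker enzyme of gelatinase granules. It measured 2.88, 8.48 and 49.6 CPM (lowest, median and highest) in CTRL and 0.0493, 5.41 and 44.4 CPM in CML 2wk, at a log2 fold change of -0.42 (SE 0.92, edgeR adjusted p = 0.710). The CML 2wk libraries were spread widely, with 1037 counts in CML 2wk 2, 1 count in CML 2wk 6 and no other CML 2wk library above 11.5 CPM, and 4 of 6 were below the CTRL median. Without CTRL 4 the sign turned, to 0.46 (adjusted p = 0.692), without CML 2wk 2 the value was -1.73 (adjusted p = 0.0778), and without the 3 libraries it was -0.51 (adjusted p = 0.455). In CML 2wk 2 some other markers also stood apart. The summed stem and multipotent progenitor genes did not, at 1226 CPM against a CML 2wk median of 1221 CPM. Timp1, the inhibitor of Mmp9, was at 74.0 CPM against at most 3.69 CPM in the other CML 2wk libraries, the summed CPM of 8 stromal and endothelial genes was 822 against a CML 2wk median of 85.5, with 8 of 8 highest in that library, and that of 8 basophil and mast cell genes was 2422 against a median of 882, with 7 of 8 highest in it. Another CML 2wk library also held stromal transcripts. Col1a1 was at 221.5 CPM in CML 2wk 2, 89.4 CPM in the next CML 2wk library and 0.341 CPM at the CML 2wk median. The part of these markers in the Mmp9 value was not tested.

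**Figure D2:**
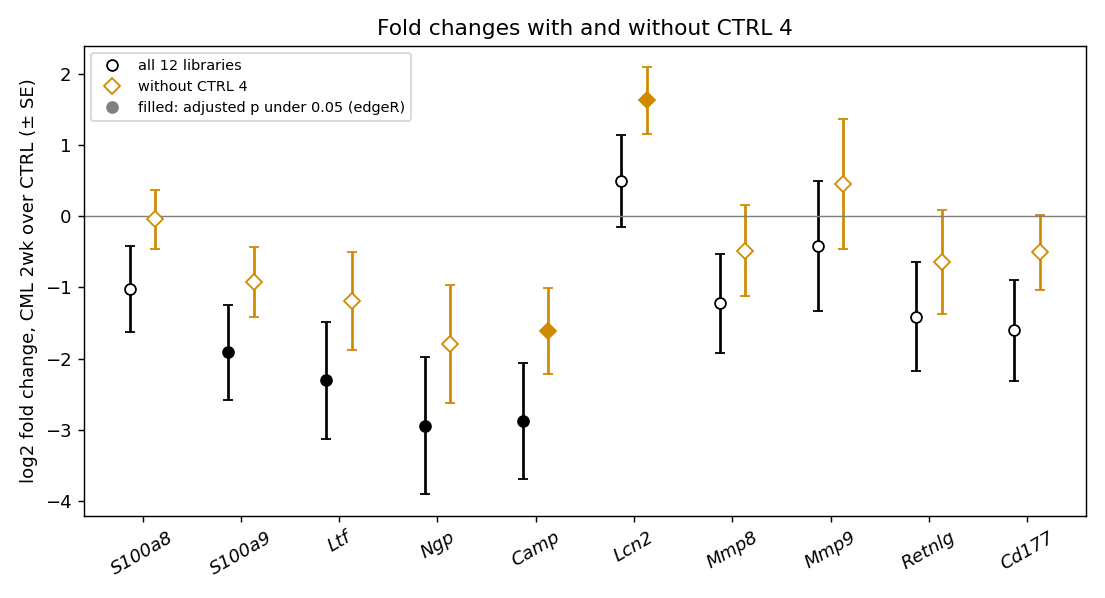
Log2 fold change of each granule gene (y axis, CML 2wk over CTRL) with its standard error, with all 12 libraries (black circles) and without CTRL 4 (yellow diamonds), filled where the edgeR adjusted p was under 0.05. With all 12 libraries the values run from -2.94 (Ngp) to 0.49 (Lcn2), and without CTRL 4 they run from -1.79 (Ngp) to 1.62 (Lcn2).

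CTRL 4 set the upper end of every CTRL range. The summed CPM of the 10 genes was 494, 558, 122, 2673, 499 and 132 in CTRL 1 to 6, and 467, 313, 320, 98.4, 176 and 198 in CML 2wk 1 to 6, which is 0.0118 to 0.265% of the counts of a CTRL library and 0.0102 to 0.0464% of those of a CML 2wk library. The highest CTRL library exceeded the lowest by 13.04-fold (Mmp8) to 34.9-fold (Camp). CTRL 3 and CTRL 6 were the low end, CTRL 3 for 7 genes and CTRL 6 for 3, and CML 2wk 1 was the highest of its group for 8 genes. Groups that did not overlap were found for 0 of the 10 genes, against 37.6% of all genes tested.

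In CTRL 4 other late neutrophil transcripts were also high. It was the highest CTRL library for 10 of 10 granule genes, 12 of 15 other specific and tertiary granule genes and 17 of 22 mature neutrophil surface and late genes, but for 1 of 10 primary granule genes, against 12.0% of all genes tested. Ly6g, the neutrophil antigen recognised by Gr-1 antibodies, was at 4.88 CPM in CTRL 4 and at most 1.20 CPM in the other CTRL libraries. Itgam, the CD11b integrin chain, was at 17.4 CPM against at most 11 CPM. The summed primary granule genes of CTRL 4 were at 3097 CPM, inside the CTRL range of 2575 to 3402 CPM. The high values were not confined to late genes. Of the 10 granulocyte transcription factors, 8 had their CTRL maximum in CTRL 4, such as Cebpe at 12.9 CPM against at most 7.15 CPM. Their sum in CTRL 4 was 689 CPM, inside the CTRL range of 592 to 705 CPM. The summed monocyte and macrophage genes were at 642 CPM in CTRL 4, the highest of CTRL (median 485 CPM), with 2 of 10 genes at their CTRL maximum there. These 2 were Lyz2, at 348 CPM against a CTRL median of 205 CPM, and Csf1r, at 34.75 CPM against 30.35 CPM. Most of the higher sum was therefore Lyz2. The part of mature cells in the CTRL 4 values was not tested.

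The genes also differed in their proportions within a library, a measure that scaling between libraries does not alter. It was chosen after the values were seen and is given as a description with no test. In CTRL the sum of the 10 genes ranged from 122 to 2673 CPM. The shares of S100a8, S100a9, Ltf, Ngp, Lcn2 and Cd177 in that sum varied far less, CTRL 4 included. Those of the other genes varied more in proportion, at 4.01 to 6.39% for Camp, 0.968 to 2.48% for Mmp8, 1.55 to 3.23% for Mmp9 and 0.959 to 2.02% for Retnlg. In CML 2wk the mixture held more Lcn2 and less Ngp and Ltf. Lcn2 made up 4.62 to 5.45% of the summed counts of the 10 genes in CTRL and 14.3 to 31.8% in CML 2wk. Ngp made up 13.6 to 19.8% and 0.356 to 12.1%, and Ltf 11.2 to 15.2% and 0.0250 to 10.7%. The ranges of these 3 genes did not overlap, whereas those of S100a8, S100a9, Camp, Mmp8, Mmp9, Retnlg and Cd177 did. The shares of a library add up to a fixed whole, so a larger Lcn2 share by itself lowers the other shares. The gaps for Ngp and Ltf are therefore not findings apart from that for Lcn2, and shares without Lcn2 were not computed. For CPM, another measure, 37.6% of all genes had ranges that did not overlap. No such background was computed for shares, so 3 of 10 is not read as a high share. Without CTRL 4, CML 2wk 2 and CML 2wk 6, Lcn2 made up 4.62 to 5.39% in CTRL and 14.3 to 20.4% in CML 2wk, Ngp 13.6 to 19.6% and 4.03 to 12.1%, and Ltf 11.2 to 15.2% and 7.18 to 10.7%.

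**Figure D3:**
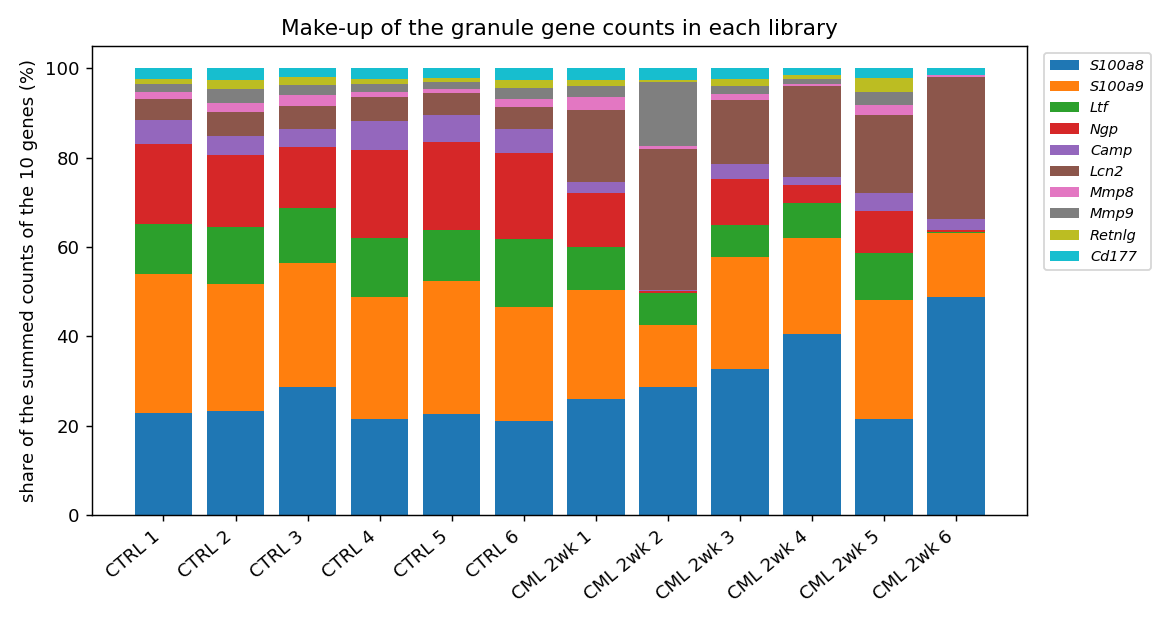
Share of each granule gene in the summed counts of the 10 genes (y axis, percent), one stacked bar per library. The 6 CTRL bars look alike in their larger shares, with Lcn2 at 4.62 to 5.45%. The CML 2wk bars hold 14.3 to 31.8% Lcn2 and vary among themselves.

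Ratios between pairs of genes were taken from the same counts as the shares and give no independent support. The count ratio of Lcn2 over S100a9 was 0.149 to 0.199 in CTRL and 0.567 to 2.27 in CML 2wk, with medians of 0.187 and 0.807. Lcn2 over S100a8 was 0.180 to 0.255 and 0.436 to 1.10, and Lcn2 over Camp 0.800 to 1.30 and 4.34 to 128. In these 3 ratios every CML 2wk library was above every CTRL library, CTRL 4, CML 2wk 2 and CML 2wk 6 included. All 3 share Lcn2, and how often the ratios of other gene pairs separate was not counted. Within calprotectin, S100a8 over S100a9 was 0.739 to 1.02 in CTRL and 0.803 to 3.35 in CML 2wk, with overlap. Camp over Ngp, a pair of cathelicidin-type genes, was 0.257 to 0.323 in CTRL and 0.202 to 4.90 in CML 2wk, and the wide end was CML 2wk 6. Ltf over Ngp was 0.594 to 0.899 in CTRL and 0.05 to 20.2 in CML 2wk, with overlap. Mmp9 over Mmp8 was 0.951 to 1.71 and 0.0476 to 18.5, also with overlap. Without the 3 libraries the CML 2wk ranges narrowed, to 0.567 to 0.951 for Lcn2 over S100a9, 0.436 to 0.824 for Lcn2 over S100a8, 4.34 to 10.8 for Lcn2 over Camp, 0.803 to 1.90 for S100a8 over S100a9 and 0.202 to 0.466 for Camp over Ngp.

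**Figure D4:**
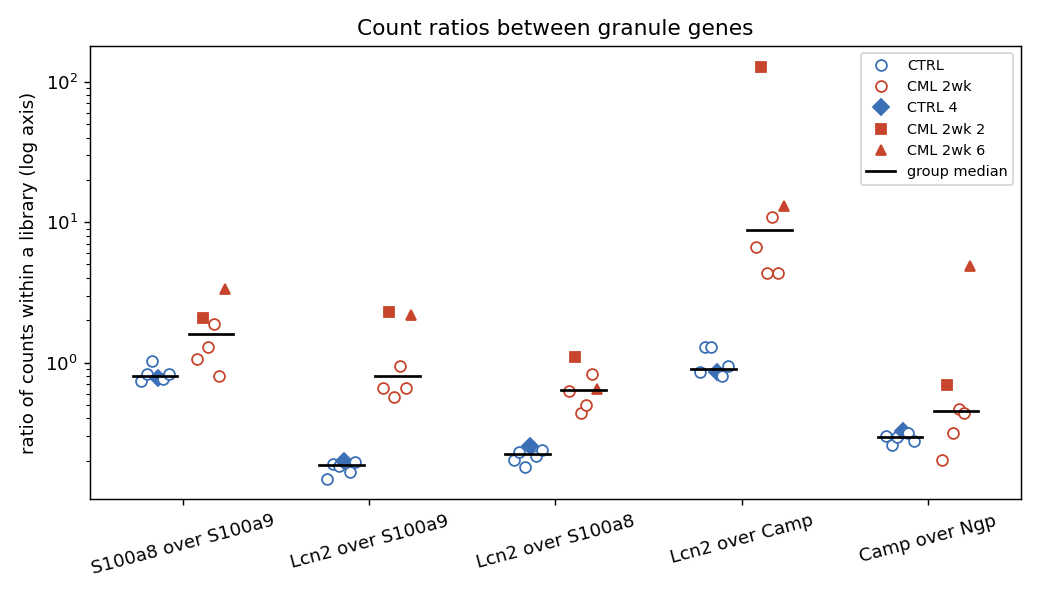
Count ratios of 5 pairs of granule genes within each library (y axis, log axis), CTRL in blue and CML 2wk in red, with lines at the medians and filled symbols for CTRL 4, CML 2wk 2 and CML 2wk 6. The 3 ratios with Lcn2 on top separate the groups, at medians of 0.187 and 0.807 for Lcn2 over S100a9, and CTRL 4 lies close to the other CTRL libraries in all 5.

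The spread of these ratios was wider in CML 2wk. Among the 7 genes with at least 10 counts in every library there are 21 pairs, and the SD of the log2 count ratio over libraries was 0.12 to 0.79 in CTRL (median 0.29) and 0.48 to 2.77 in CML 2wk (median 1.41), larger in CML 2wk for 21 of 21 pairs. Much of the CML 2wk spread rested on CML 2wk 2 and CML 2wk 6. Over the 4 CML 2wk libraries left without them the SD was 0.28 to 1.37 (median 0.60), larger for 20 of 21 pairs both against all 6 CTRL libraries and against the 5 left without CTRL 4 (median 0.29). The pairs share genes and libraries and are not independent. Over all genes, the biological coefficient of variation was 10.8% in CTRL and 32.6% in CML 2wk. The lower depth of CML 2wk adds counting error to its ratios, and its part was not tested.

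Per kilobase of exon, the median CTRL levels ran from S100a9 (288 CPM per kb) through S100a8 (163), Ngp (73.05), Camp (32.8), Ltf (16.4), Lcn2 (8.996), Retnlg (8.88), Cd177 (3.88) and Mmp8 (2.58) to Mmp9 (2.40). The order down to Lcn2 held in 6 of 6 CTRL libraries. Lcn2 was above Retnlg in only 2 of 6 and Mmp8 above Mmp9 in 2 of 6, so these neighbours did not differ beyond their spread. In CML 2wk the order of medians was S100a8 (134 CPM per kb), S100a9 (86.6), Lcn2 (20.7), Ngp (8.28), Camp (7.91), Retnlg (6.13), Ltf (6.00), Cd177 (1.97), Mmp9 (1.53) and Mmp8 (1.24). Lcn2 stood in the sixth place by level in CTRL and in the third in CML 2wk. Only the step from S100a9 to Lcn2 held in 6 of 6 CML 2wk libraries, and S100a8 was above S100a9 in 3 of 6.

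The counts of the lists that follow stand beside 59.5% of all genes called, 30.6% higher and 29.0% lower, and a share near these is no result about a list. Of 15 other specific and tertiary granule genes 14 were tested, 6 were higher and 2 lower, which is close to that background, with a median log2 fold change of 0.52. Hp, haptoglobin, was higher by 2.40 (edgeR adjusted p = 1.34e-05), and Anxa1, a gelatinase granule protein, by 1.18 (adjusted p = 0.000273). Mmp25, a membrane-bound metalloproteinase, had a log2 fold change of -1.72 (edgeR adjusted p = 0.0346, and 0.186 without CTRL 4) and Slc11a1, a metal transporter of gelatinase granules, of -1.57 (adjusted p = 0.00217). Without CTRL 4 the counts were 7 higher and 1 lower.

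All 10 primary granule genes were higher, with a median log2 fold change of 1.34. Ctsg, cathepsin G, was at 133 to 211 CPM in CTRL and 753 to 2016 CPM in CML 2wk, a log2 fold change of 2.90 (SE 0.21, edgeR adjusted p = 8.40e-08). Elane, neutrophil elastase, rose by 1.45 (SE 0.25, adjusted p = 0.00019) and Mpo, myeloperoxidase, by 0.67 (SE 0.23, adjusted p = 0.0195). The counts were again 10 of 10 without CTRL 4 and 9 of 10 without the 3 libraries.

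Of 22 mature neutrophil surface and late genes 18 were tested, 9 were higher and 5 lower, with a median log2 fold change of 0.92. Ly6g was at 0.264 to 4.88 CPM in CTRL and 0 to 0.680 CPM in CML 2wk, at -2.56 (SE 0.81, edgeR adjusted p = 0.0138), and it missed the threshold without CTRL 4 (adjusted p = 0.0669). Cxcr2, the neutrophil chemokine receptor, was higher by 0.86 (SE 0.24, adjusted p = 0.00598), and Trem1, an activating receptor of myeloid cells, by 3.05 (SE 0.20, adjusted p = 3.80e-08). Without CTRL 4 the counts were 10 higher and 2 lower.

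Among 10 transcription factors of granulocytes, 5 were higher and 3 lower, with and without CTRL 4. Cebpe, required for specific granule genes, was at 6.08 to 12.9 CPM in CTRL and 6.40 to 21.1 CPM in CML 2wk, higher by 0.75 (SE 0.28, edgeR adjusted p = 0.0324). Cebpd was higher by 1.43 (SE 0.25, adjusted p = 0.000211), and Cebpa, Cebpb and Gfi1 were also higher. Irf8, which directs progenitors to the monocyte lineage, had a log2 fold change of -1.47 (SE 0.27, edgeR adjusted p = 0.000259), and Stat3, which signals from the G-CSF receptor, of -0.57 (SE 0.09, adjusted p = 6.92e-05). Rara was the other factor that was lower, and Spi1 and Klf5 did not pass.

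Of 15 receptors, partners and inhibitors of these proteins 14 were tested, 3 were higher and 4 lower, which is not above the background. Tlr4, a receptor for calprotectin, was higher by 1.19 (SE 0.14, edgeR adjusted p = 6.70e-06), and its co-receptor Cd14 by 2.704 (SE 0.52, adjusted p = 0.000398). Slc22a17, the lipocalin 2 receptor, was at 7.09 to 13.7 CPM in CTRL and 1.28 to 3.06 CPM in CML 2wk, at -2.16 (SE 0.24, edgeR adjusted p = 2.80e-06). Ager, the receptor RAGE, was at -1.04 (SE 0.22, adjusted p = 0.000919). Fpr2, a receptor for the Camp peptide that is counted in the late gene list as well, and Reck, an inhibitor of Mmp9, were lower with all libraries but not without CTRL 4 (adjusted p = 0.124 and 0.0859), where the counts were 3 higher and 2 lower.

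**Figure D5:**
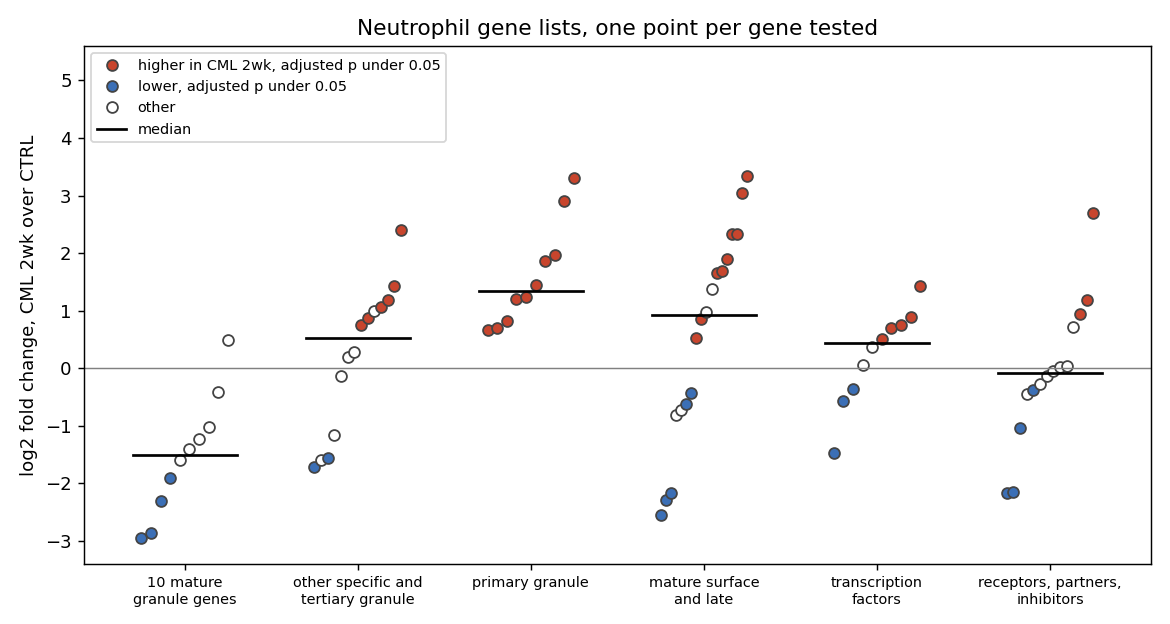
Log2 fold change (y axis, CML 2wk over CTRL) of each gene tested in the 10 granule genes and 5 related lists, filled red for higher and blue for lower at an edgeR adjusted p under 0.05, with lines at the medians. The medians run from -1.51 for the 10 granule genes (-0.57 without CTRL 4) to 1.34 for the primary granule genes (1.33 without CTRL 4).

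The levels that followed those of the 10 genes most closely were sought over 13432 genes, by the Pearson correlation of group-centred log2 CPM over the 12 libraries with the mean of the standardised granule genes, given with no test. The 5 most alike were Itgb2l (r = 0.97), a beta integrin of late neutrophils, Chil1 (0.93), Ifitm6 (0.91), Mrgpra2b (0.89) and 6430548M08Rik (0.88). Without CTRL 4 the value for Itgb2l was 0.95 and for 6430548M08Rik 0.80. The libraries share depth and composition between all genes, and the centring removes the difference between the groups. Itgb2l was itself lower in CML 2wk at -2.29 (SE 0.82, edgeR adjusted p = 0.0255, and 0.149 without CTRL 4) and Mrgpra2b higher at 2.34 (SE 0.35, adjusted p = 4.03e-05).

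Marker lists of other cells gave the following counts. The Lin- gate is meant to remove mature B, T, erythroid and myeloid cells, and the CD45.2+ gate stromal and endothelial cells. Stem and multipotent progenitor genes were lower for 8 of 8. Sort markers were higher for 1 and lower for 1 of 3, monocyte and macrophage genes higher for 4 and lower for 1 of 10, basophil and mast cell genes 5 and 1 of 8, eosinophil genes 1 and 3 of 6, B cell genes 0 and 2 of 8, T and NK cell genes 2 and 2 of 6, erythroid genes 0 and 8 of 9, megakaryocyte genes 0 and 7 of 7, and stromal and endothelial genes 3 and 0 of 7. Without CTRL 4 the counts higher and lower were 0 and 7 for stem, 0 and 3 for eosinophil and 0 and 1 for B cell genes. They were 1 and 2 for T and NK cell and 0 and 6 for megakaryocyte genes. Without CTRL 4, CML 2wk 2 and CML 2wk 6, stromal and endothelial genes were 1 and 1, and eosinophil genes 0 and 4. B cell genes were then 0 and 3, and T and NK cell genes 1 and 3. The part of these cells in the granule gene values was not tested.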

How the data were processed

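Total RNA of 12 libraries of sorted LSK cells was measured by RNA-seq (Kapa RNA HyperPrep). The authors deposited raw counts per Ensembl gene, 1 table per library. The submitters' processing notes list FastQC 0.11.9, fastp 0.23.2, STAR 2.7.10a, featureCounts 2.0.1, DESeq2 1.36.0 and mm39 (GRCm39), whereas the study's methods name Trim Galore!, HISAT2 and a human build for bulk RNA-seq, so the aligner is uncertain. The strand setting is not given in the sources used here. No annotated gene overlaps any of the 10 genes in GENCODE, so this does not affect them.

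Groups were taken from the sample titles. The study's methods give 2 cohorts with n = 6 each, and neither they nor the labels state that each library is 1 mouse. If a library is not 1 mouse, p-values measure only the spread between these libraries, which may be technical. No pair of libraries agreed within sampling noise (lowest chi-square per degree of freedom 4.07). The 10 genes and all lists were chosen with earlier results of these data known. Counts were filtered with filterByExpr, scaled with TMM and tested with the edgeR 4.0.16 quasi-likelihood test in R 4.3.3, with Benjamini-Hochberg adjustment over 18438 genes, and DESeq2 1.42.0 was an alternative. Of 56748 identifiers, 52073 had a symbol. CPM are TMM-scaled, and levels per kb use union exon lengths. Named genes were the 10, examples of each list, and the 5 genes most correlated with the 10 among those with a mean log2 CPM of at least 1. On simulated data with 200 changed genes of 18171, edgeR recovered 79 of 100 at a log2 change of 1 and 85 of 100 at 2, with 7 false calls. The changed genes were drawn at random and each gene had the same dispersion in both groups. These shares therefore do not give the power for the 10 granule genes. Limits from counts cover counting error only. Promoter windows were read from a RefSeq table on GRCm38.p6, since no sequence of the mm39 build was used here, and no coordinates were converted. Figures were drawn with matplotlib 3.10.9.

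Alternatives were DESeq2, its size factors in the edgeR fit, upper-quartile factors, no filter and another filter on low counts, another prior count, thinning to equal depth, a stricter threshold, the replicate number as a block, each library left out in turn, replicate 6 of both groups left out, and (added after the data were seen) CTRL 4, CML 2wk 2 and CML 2wk 6 left out together.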

Additional observations from a re-analysis of the deposited data

Results flagged for a closer look

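A library far from the rest of its group was found in 12 of the 20 sets of 6 values (10 genes in 2 groups) by Dixon's criterion on unlogged CPM. Of these, 10 were CTRL 4, which stood above the next CTRL library for every gene. S100a8 was at 571.5 CPM (next 130.2), S100a9 at 732 (next 158), Ltf at 353 (next 72.0), Ngp at 528.5 (next 97.5) and Camp at 170.9 CPM (next 30.5). Lcn2 was at 145.7 CPM (next 30.1), Mmp8 at 29.02 (next 11.2), Mmp9 at 49.61 (next 18.04), Retnlg at 27.26 (next 11.3) and Cd177 at 65.44 CPM (next 14.0). The 10 flags come from 1 library and are not independent. Chance gives about 1 for normally distributed values, which these CPM were not shown to be, so the 12 are not weighed against it. The criterion was not applied to log2 CPM. On that scale S100a8 was at 9.16 in CTRL 4, 7.03 in CTRL 2 and 4.81 in CTRL 6, the lowest of CTRL. In CML 2wk, Mmp8 was at 12.7 CPM in CML 2wk 1 (next 4.78), and Mmp9 was at 44.37 CPM in CML 2wk 2 (next 11.5).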

How the results depend on the processing

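The number of the 10 genes past the threshold was 4 with all libraries and 2 to 6 when 1 library was left out. It was 2 (Camp lower, Lcn2 higher) without CTRL 4, 3 without CML 2wk 4, 5 without CTRL 3 or without CTRL 6 (Cd177 added) and 6 without CML 2wk 1 (Mmp8 and Cd177 added). It was 1 (Lcn2) without CTRL 4, CML 2wk 2 and CML 2wk 6 together and 1 (Camp) at an adjusted p under 0.01. The log2 fold change of Mmp9 ran from -1.73 without CML 2wk 2 to 0.46 without CTRL 4, where it turned its sign. B cell genes called numbered 2, and 1 with DESeq2 and without CTRL 4. The cause of these moves was not tested. Of 220 fold changes of the 10 genes under 22 alternatives, 202 kept their direction and their side of the threshold. A gene that stayed uncalled with the same sign counts as kept whatever its size, such as S100a8 at -1.02 and at -0.05 without CTRL 4. The share is therefore no measure of the stability of the 4 calls, of which S100a9, Ltf and Ngp were lost without CTRL 4.

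With the replicate number as a block, 1 of the 10 genes passed (Ngp, -3.05, edgeR adjusted p = 0.030), and S100a9 (-1.20), Ltf (-1.93) and Camp (-2.08) did not, while 9975 of all genes were still called. The correlations of same-numbered libraries were -0.13 to 0.07 and 1 of 6 libraries was most alike to its own number, so the numbers do not pair the libraries. The depth limits the low end: CML 2wk 6 held 1 count of Ltf, 1 of Mmp9 and 0 of Retnlg.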

Other observations

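Replicate 6 of both groups carried library numbers apart from those of replicates 1 to 5, and 4 of the 10 genes were called without both. The libraries are not a pair, CTRL 6 was at the low end of CTRL, and no test was made. S100a8 was at 27.9 CPM in CTRL 6 and 96.2 CPM in CML 2wk 6, and Lcn2 at 6.64 and 62.8 CPM. Ngp was at 25.6 and 0.987 CPM, Camp at 7.06 and 4.84 CPM, and Ltf at 20.15 and 0.0493 CPM. S100a9 was at 33.7 and 28.7 CPM, Cd177 at 3.32 and 2.91 CPM, and Mmp8 at 2.23 and 1.04 CPM. Mmp9 was at 3.32 and 0.0493 CPM and Retnlg at 2.49 and 0 CPM.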
